A study of Mus musculus with 12 samples.

Results

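Between genes and close to them, 5866 of the 23932 ATAC-seq peaks listed for *NOD-TCR 8.3 UTX TCD* against *NOD-TCR 8.3 WT* T_prog_ cells were examined. ATAC-seq marks accessible chromatin by where a transposase can insert adapters. A peak was a member when HOMER, the annotation tool the authors used, classed it as intergenic and placed its centre at most 50 kb from the transcription start site (TSS) of the nearest promoter. A further 2668 intergenic peaks lay farther away, 10808 peaks lay in introns and 2621 at promoters.

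The cells came from pancreatic lymph nodes of female nonobese diabetic (NOD) mice in which T cells carry the transgenic NY8.3 T cell receptor for a peptide of the β cell protein IGRP. In *UTX TCD* mice both floxed alleles of *Kdm6a*, the X-linked gene of UTX, are deleted in T cells by a Cre recombinase under the *Lck* promoter, which is active from early thymic development. For the NOD line without the transgenic receptor, WT controls were described as littermates without Cre. That line was made by backcrossing from B6 mice, and a cross with NY8.3 mice gave the *UTX TCD* mice used here. CD8+ cells were sorted as Ly108+ progenitors, with CXCR6 as the negative marker in the sample labels and CD39 in the methods. The age of the mice for these assays was not given in the sources used here. Each genotype had 3 RNA-seq and 3 ATAC-seq libraries, each described as a biological replicate.

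UTX removes methyl groups from lysine 27 of histone H3 and is a subunit of the MLL3/4 complexes, which place monomethylation on lysine 4 of histone H3 at enhancers. Enhancers often lie between genes, bind factors such as TCF1, RUNX, ETS and AP-1 proteins in T cells, and can act on a promoter from either side. The gene with the nearest promoter is a common first guess at the target, and it is not always the right one.

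Of the 5866 members, 3918 (66.8%) had a higher concentration in *UTX TCD* cells, called gains here, and 1948 (33.2%) a lower one, called losses. Concentration is the authors' measure of accessibility, the log2 of the mean normalized reads in a peak over the libraries of a genotype, and differences are *UTX TCD* minus WT. The authors listed only peaks that had passed an FDR limit on this same contrast, so these differences describe how the members were found and carry no test or replicate spread here. The median difference was 0.49, with the middle part of the members between -0.52 (lower quartile) and 0.82 (upper quartile), and the extremes were -3.90 and 4.78. Members that gained had a median of 0.69 and members that lost one of -0.78. The share of gains was 61.5% among intergenic peaks beyond 50 kb, 65.6% in introns and 85.3% at promoters, beside 68.8% of all listed peaks. A difference over 1 in size was seen for 1654 members, 993 of them gains and 661 losses. Members in the upper part of the concentration range, at or above the median of 7.67, had 65.9% gains with a median difference of 0.40, and those below it had 67.6% gains with a median of 0.65.

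Upstream and downstream members had similar shares of gains. Upstream of the TSS lay 4151 members, of which 2750 gained (66.2%, median difference 0.49), and downstream lay 1715, of which 1168 gained (68.1%, median difference 0.49). Downstream members were farther from the TSS, with a median distance of 22050.5 bp for gains and 22618 bp for losses, against 14106.5 bp and 14771 bp upstream. Nearest the gene, within 2 kb upstream, 165 of 227 members gained (72.7%), and the share was 71.6% from 2 to 5 kb, 64.3% from 5 to 10 kb, 66.0% from 10 to 20 kb, 65.2% from 20 to 30 kb, 65.4% from 30 to 40 kb and 63.6% from 40 to 50 kb. Downstream, where 5 members lay within 2 kb, the share was 65.1% of 43 members from 2 to 5 kb, 71.5% of 207 from 5 to 10 kb and 69.3% of 511 from 10 to 20 kb. It was 66.7% of 411 from 20 to 30 kb, 70.6% of 299 from 30 to 40 kb and 62.8% of 239 from 40 to 50 kb, with no steady order over distance.

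Peaks next to the limit of 50 kb were read on both sides of it. The last members inside were assigned to *Pole4* at -49994 bp, with a difference of 0.51, to *Casp8* at 49990 bp, with 0.85, and to *Jrkl* at 49985 bp, with 0.81. The first intergenic peaks outside were assigned to *Aasdhppt* at 50028 bp, with 0.97, to *5430421F17Rik* at 50029 bp, with 0.64, and to *Smad5* at 50036 bp, with 2.24. Over 5 kb on each side of the limit, 156 of 241 members inside (64.7%) and 159 of 229 peaks outside (69.4%) gained. A difference over 1 in size was seen for 38 gains and 38 losses inside, and for 43 gains and 23 losses outside. Whether the sides differ was not tested.

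Members close to each other tended to move the same way. Of 124 pairs of neighbouring members no more than 1 kb apart, 117 had the same direction (94.4%). The share was 87.7% of 618 pairs from 1 to 5 kb apart, 80.8% of 1100 pairs from 5 to 20 kb and 75.5% of 694 pairs from 20 to 50 kb. It was 68.8% of 1291 pairs from 50 to 200 kb and 63.0% of 2017 pairs more than 200 kb apart. With 66.8% gains among all members, unrelated pairs would also often share a direction, and no share for such pairs was computed. Peaks close to each other can share fragments and a local chromatin state, and they are not independent of each other. By chromosome the share of gains ran from 62.1% of 372 members on chromosome 7 to 75.8% of 264 on chromosome 13, and chromosome X, which carries *Kdm6a*, had 83 gains among 118 members. Whole stretches moved one way, as in these windows, which were chosen after their values were seen. On chromosome 13, between 21000001 and 22000000, all 17 members gained, with a median difference of 0.79, near *Hist1h2bl*, a histone gene, and the zinc finger genes *Zkscan3* and *Zfp184*. On chromosome 10, between 78000001 and 79000000, 13 of 14 members lost, with a median of -0.83, near *Icosl*, *Pdxk* and *Gatd3a*. All coordinates are those of mm10 (GRCm38).

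The number of CpG dinucleotides in a member went with its direction, a feature that neither the annotation nor the distance had used. Over the 5851 members of 401 bp on assembled chromosomes, gains held a median of 7 CpG and losses 4, while the median GC content was 48.9% and 48.6%. Of 964 members with at most 2 CpG, 457 gained (47.4%), and their median difference was -0.38. The share was 56.8% of 1739 members with 3 to 5 CpG, 71.6% of 1950 with 6 to 10, 89.3% of 868 with 11 to 20 and 90.9% of 330 with 21 or more. Split at the median concentration, gains were 95.9% of the 515 members with more than 10 CpG in the lower part, against 53.9% of the 1500 with at most 5, and in the upper part 85.1% of 683 against 52.9% of 1203. Upstream the share went from 52.3% with at most 5 CpG to 89.4% with more than 10, and downstream from 56.3% to 90.5%. Other listed peaks showed the same order, from 36.4% to 93.4% for intergenic peaks beyond 50 kb and from 56.6% to 92.4% in introns, between at most 2 and at least 21 CpG. GC content alone gave no such order up to 55%, with 72.2% gains among 263 members of at most 40% GC and 64.5% among 1537 members of 50 to 55%, and reached 80.4% above 60%.

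Short motifs of T cell factors were counted on both strands of each member. Each is spelled here as searched, and a match describes letters and not a bound site. The RUNX letters TGTGGTT stood in 22.3% of losses and 17.2% of gains, against 17.7% of all listed peaks of this length. The ETS letters AGGAAGT stood in 27.4% of losses and 20.9% of gains (22.1% of all), and the AP-1 letters TGANTCA in 17.2% and 12.9% (12.8% of all). For the KLF letters GGGNGTG the shares were 38.1% and 29.7% (32.8% of all). The NFAT letters TGGAAAA stood in 9.72% of losses and 7.68% of gains (7.60% of all). The NR4A letters AAAGGTCA were rare, in 127 members, of which 59 gained (46.5%, median difference -0.38; 1.84% of all listed peaks held them), the only one of the 15 motif groups in which losses outnumbered gains. The CTCF core letters AGGNGGC stood more often in gains, at 34.6% against 27.1% of losses (33.4% of all). The TCF1/LEF1 letters CTTTGAA or CTTTGAT stood in 1169 members, 785 of which gained (67.2%), close to the share of all members (19.3% of all listed peaks held them). The E-box letters CAGCTG or CAGGTG stood in 46.3% of gains and 47.3% of losses (47.1% of all), the GATA letters AGATAA in 18.0% and 17.5% (16.8% of all) and the T-box letters GGTGTGA in 7.22% and 7.03% (7.09% of all). For the STAT letters TTCNNNGAA the shares were 13.4% of gains and 11.8% of losses (11.9% of all), and for the IRF letters GAAANNGAA 13.9% and 12.9% (13.6% of all). The NF-kB letters GGGANTTCC were found in 130 members, 94 of which gained (2.08% of all listed peaks held them), and the BACH2 letters TGCTGAGTC in 39, 25 of which gained (0.69% of all). By side, RUNX letters stood in 23.6% of upstream losses and 17.3% of upstream gains, and in 18.9% and 17.0% downstream. TCF1/LEF1 letters stood in 20.3% of upstream losses and 19.0% of upstream gains, and in 18.7% and 22.4% downstream.

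A few members, most of them assigned to genes of T cell fate, are printed to show how such letters lie within a peak. Each run is the central 300 bases of a peak in the reference of C57BL/6J, whereas the mice were NOD, and it is read 5′ to 3′ on the strand of the assigned gene. They were chosen after their values were seen. HOMER placed each between genes, and in the RefSeq annotation all but that of *Thy1* also lie outside gene bodies. Those assigned to *Il6* and *Lef1* have other RefSeq genes as their neighbours on both sides. Capitals mark TCF1/LEF1 or STAT letters, read on either strand, in the first set of gains. At *Satb1*, a genome organizer of T cells, the run is chr17:51842975-51843274 (minus strand), 9834 bp upstream of the TSS, where concentration was 5.36 in WT and 7.57 in *UTX TCD* cells. At *Il6*, the gene of interleukin-6, it is chr5:30037706-30038005 (plus strand), 24741 bp downstream, with 5.82 and 8.64, and its TCF1/LEF1 letters lie inside its STAT letters.
Satb1: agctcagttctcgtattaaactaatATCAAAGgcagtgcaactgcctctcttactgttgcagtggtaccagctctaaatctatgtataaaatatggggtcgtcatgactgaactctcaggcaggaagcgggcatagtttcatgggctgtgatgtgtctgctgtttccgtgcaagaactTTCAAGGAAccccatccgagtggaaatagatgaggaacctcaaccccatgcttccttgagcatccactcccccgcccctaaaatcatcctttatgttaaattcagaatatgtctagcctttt
Il6: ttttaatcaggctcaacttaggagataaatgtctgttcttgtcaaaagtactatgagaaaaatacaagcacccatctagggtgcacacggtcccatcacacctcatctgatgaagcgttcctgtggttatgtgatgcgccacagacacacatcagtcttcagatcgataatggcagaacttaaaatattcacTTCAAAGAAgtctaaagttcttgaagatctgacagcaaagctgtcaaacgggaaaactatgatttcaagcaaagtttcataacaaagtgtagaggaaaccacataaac

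Capitals mark RUNX or AP-1 letters in the next set, a gain followed by losses. At *Nr4a2*, an early response gene of antigen receptor signals, the run is chr2:57105530-57105829 (minus strand), 9359 bp downstream, with a concentration of 4.62 in WT and 6.05 in *UTX TCD* cells. At *Ifng*, the gene of interferon-γ, it is chr10:118458801-118459100 (plus strand), 17904 bp downstream, with 7.95 and 6.82, and it holds AP-1 letters at 3 places. At *Trnp1*, it is chr4:133501552-133501851 (minus strand), 3151 bp upstream, with 8.96 and 6.50. At *Thy1*, the gene of the surface protein CD90, it is chr9:44041084-44041383 (plus strand), 2151 bp upstream, with 9.86 and 8.74, and only AP-1 letters were present. This peak lies inside *Gm39323*, a predicted gene of RefSeq, as do the other upstream members of *Thy1*.
Nr4a2: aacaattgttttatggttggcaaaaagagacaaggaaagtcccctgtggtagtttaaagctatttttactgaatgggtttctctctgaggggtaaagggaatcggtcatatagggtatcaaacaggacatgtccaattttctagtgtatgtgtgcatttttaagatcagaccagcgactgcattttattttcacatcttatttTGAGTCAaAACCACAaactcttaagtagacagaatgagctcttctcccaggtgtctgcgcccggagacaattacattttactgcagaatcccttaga
Ifng: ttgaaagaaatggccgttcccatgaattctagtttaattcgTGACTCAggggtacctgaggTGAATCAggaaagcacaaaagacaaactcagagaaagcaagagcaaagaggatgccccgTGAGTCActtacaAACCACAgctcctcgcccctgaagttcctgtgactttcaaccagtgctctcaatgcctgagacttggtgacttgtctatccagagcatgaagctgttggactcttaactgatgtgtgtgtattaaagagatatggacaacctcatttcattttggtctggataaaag
Trnp1: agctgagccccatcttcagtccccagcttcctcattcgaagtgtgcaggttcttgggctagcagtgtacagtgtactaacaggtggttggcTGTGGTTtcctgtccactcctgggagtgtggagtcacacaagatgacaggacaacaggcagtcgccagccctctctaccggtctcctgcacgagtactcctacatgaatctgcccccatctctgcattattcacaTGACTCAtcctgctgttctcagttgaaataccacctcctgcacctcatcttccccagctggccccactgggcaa
Thy1: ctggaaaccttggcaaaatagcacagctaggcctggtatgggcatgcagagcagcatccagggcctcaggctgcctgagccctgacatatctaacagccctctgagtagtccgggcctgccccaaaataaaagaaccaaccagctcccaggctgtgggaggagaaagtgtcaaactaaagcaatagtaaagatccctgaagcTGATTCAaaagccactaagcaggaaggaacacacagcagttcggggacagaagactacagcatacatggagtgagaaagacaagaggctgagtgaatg

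Losses also held TCF1/LEF1 letters, marked in capitals together with AP-1 letters at *Lef1* and alone at *Ccr4*. At *Lef1*, the gene of a partner of TCF1, the run is chr3:131086030-131086329 (plus strand), at -24118 bp from the TSS, with a concentration of 6.75 in WT and 5.72 in *UTX TCD* cells, and the AP-1 letters overlap the second TCF1/LEF1 letters. At *Ccr4*, a chemokine receptor gene, it is chr9:114476603-114476902 (minus strand), 19792 bp downstream, with 6.98 and 4.48.
Lef1: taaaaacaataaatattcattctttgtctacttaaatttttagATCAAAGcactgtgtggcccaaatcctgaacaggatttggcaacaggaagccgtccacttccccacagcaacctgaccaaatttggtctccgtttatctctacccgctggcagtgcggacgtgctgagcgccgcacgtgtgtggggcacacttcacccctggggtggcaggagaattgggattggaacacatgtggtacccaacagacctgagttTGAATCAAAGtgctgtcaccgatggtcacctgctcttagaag
Ccr4: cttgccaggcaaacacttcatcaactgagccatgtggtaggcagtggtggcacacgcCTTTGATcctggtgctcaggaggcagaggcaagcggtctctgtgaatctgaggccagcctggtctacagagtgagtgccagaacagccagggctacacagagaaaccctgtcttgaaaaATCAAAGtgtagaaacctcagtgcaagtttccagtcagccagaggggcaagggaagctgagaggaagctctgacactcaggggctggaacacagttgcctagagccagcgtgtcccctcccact

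The rule for members used annotation and distance and no RNA-seq value, although it was set with earlier results of these data known. Expression was read from the 6 RNA-seq libraries. Depth came to 146456724, 144503203 and 193568919 assigned reads for the WT replicates and to 61512402, 175462433 and 187275082 for the *UTX TCD* replicates, so *UTX TCD* replicate 1 was the shallowest. WT replicate 2 stood apart from the other WT libraries. The mean χ2 per gene between the reads of a pair of libraries, which also grows with depth, was 68.4 and 104 between it and WT replicates 1 and 3, against 27.4 between those, and at most 44.2 between *UTX TCD* libraries. It was also nearer to each *UTX TCD* library than the other WT libraries were, at 151, 265 and 253, and had the highest WT count of *Ikzf2*, *Irf4*, *Nr4a2* and *Gucy1a1*. *Kdm6a* was counted at 28365, 28949 and 29172 in WT and 24158, 24792 and 24579 in *UTX TCD* libraries, which did not overlap (log2 fold change -0.23, SE 0.04, adjusted p = 0.00114 from limma). Counts per gene do not show the deleted exons. Values are the authors' normalized counts, and limma was fitted to log2(normalized count + 1) of the 14459 genes with a mean of at least 10. A gene was called at an adjusted p under 0.05 and a log2 fold change over 0.5 in size, and adding 1 makes changes at low counts look smaller. For a single gene, 3 libraries against 3 allow no exact permutation p below 0.1.

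The members were assigned to 3924 gene names, 3558 of which stood in the expression table and 2439 passed the filter on low counts. Among these 2439 genes 558 were called (22.9%), beside 17.6% of all tested genes. By direction 301 rose (12.3%, beside 10.5% of all) and 257 fell (10.5%, beside 7.05% of all), a balance that turned without the limit on size, at 557 higher and 656 lower. In 88 of the 2439 genes, and in 52 of the 558 called, a genotype had a mean under 10, so that these passed the filter only through the genotype where they were higher. Libraries of the genotypes did not overlap for 1441 of them (59.1%, beside 51.9% of all). The median log2 fold change was -0.02, against 0.00 over all tested genes. Genes that passed the filter with no listed peak of any class were called in 879 of 7570 cases (11.6%). A further 3 members carried no gene name, and 11 carried a name that a spreadsheet had turned into a date and could not be joined.

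The direction of the members went with the direction of expression. Of 1553 tested genes whose members all gained, 261 rose (16.8%) and 71 fell (4.57%), with a median log2 fold change of 0.07. Of 682 genes whose members all lost, 28 rose (4.11%) and 158 fell (23.2%), with a median of -0.20. Genes with members in both directions numbered 204, of which 12 rose and 28 fell. Taking the mean difference of a gene's members, 444 of the 558 called genes (79.6%) had the same direction in both assays. Without WT replicate 2, 589 genes with a member were called, 463 of them (78.6%) in the same direction. Across the 2439 tested genes the mean difference and the log2 fold change correlated at Pearson's r = 0.33 and Spearman's rho = 0.36, as a description over genes that share libraries and often share neighbours.

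Calls were counted by the number of members in 1 direction, beside 17.6% called, 10.5% higher and 7.05% lower among all tested genes. Of the 336 tested genes with at least 2 members that all gained, 72 rose and 8 fell, and of 230 with at least 2 that all lost, 75 fell and 6 rose. Among genes whose members all lost, 27.3% were called, and the share was 35.2% with at least 2 members, 36.7% with at least 3 and 34.1% with at least 4. Among genes whose members all gained, it was 21.4%, and 23.8% with at least 2, 30.9% with at least 3 and 36.8% with at least 4, the last over only 19 genes. Genes whose nearest member lay within 5 kb were called in 134 of 391 cases (34.3%), and the share was 23.4% from 5 to 10 kb. From 10 to 20 kb it was 19.8% and beyond 19.7%, both near the 17.6% of all tested genes. The same direction was found for 82.8%, 85.0%, 81.2% and 70.6% of the called genes in these bins.

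Calls were also counted by position, beside 17.6% called among all tested genes. Of 1769 tested genes with upstream members only, 403 were called (22.8%), and 321 of these (79.7%) had the same direction. Of 520 with downstream members only, 106 were called (20.4%) and 81 of these (76.4%) had the same direction. Genes flanked by members on both sides were called in 49 of 150 cases (32.7%), with the same direction in 42. A test of these differences was not made. Genes with members on both sides have at least 2 members, and 21.4% of genes with 1 member were called, against 29.1% with 4 or more. Position and number of members are therefore not told apart here. Genes that also had a listed promoter peak were called in 173 of 398 cases (43.5%), and those without one in 385 of 2041 (18.9%). For the 964 tested genes whose listed peaks were all near-gene intergenic, 150 were called (15.6%), below the share of all tested genes, and 111 of these had the same direction (74.0%).

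The gene on the other side of a member was read as well, from the RefSeq annotation of GRCm38.p6. Of 5852 members on assembled chromosomes, 4603 (78.7%) were flanked by their assigned gene or lay inside it, and 1380 (23.6%) lay inside a gene body of this annotation, 451 of them in a protein-coding one. With the assigned gene, 908 of 3710 members with a tested gene had a called one (24.5%), and 731 of these (80.5%) had its direction. With the gene across the member from it, 361 of 1607 had a called one (22.5%), and 256 of these (70.9%) had its direction. Over all tested genes, called or not, the sign was the same for 64.3% and 60.4% of the members. The gene across was read only where the assigned gene flanked the member, so the shares come from unlike sets of members. A gene with several members was counted for each of them.

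The largest gains among members of at least median concentration were mostly assigned to genes that were low or silent in these cells. The long noncoding RNA gene *1700121N20Rik* on chromosome 12 had 9 members, all gains, with differences from 0.78 to 3.98, and was listed at 0 in all 6 RNA-seq libraries, where 3 reads would make a share of 1.55e-08 to 4.88e-08 of a library. Members assigned to *Tbata* (difference 3.09), *Il6* (2.82) and *Mb* (2.74) gained, and these genes were too low to be tested. *Wnt3*, which encodes a secreted signalling protein, had a member 2505 bp upstream with a difference of 2.66. It was counted at 13.9, 10.9 and 22.9 in WT and 126, 131 and 181 in *UTX TCD* libraries, so every *UTX TCD* value lay far above every WT value (log2 fold change 3.17, SE 0.31, adjusted p = 7.73e-05 from limma). *Hs3st3a1*, a heparan sulfate sulfotransferase gene, had a member with a difference of 2.77 and rose from 31.0 ± 6.42 to 61.4 ± 3.74 (SD, n = 3; log2 fold change 0.98, adjusted p = 0.0142 from limma). That call was lost without WT replicate 3 (adjusted p = 0.0511). *Cox20*, an assembly factor gene of cytochrome c oxidase, had a member with 2.54, and its libraries overlapped between the genotypes. In the RefSeq annotation the members of *Hs3st3a1* and *Cox20* have other genes on both sides.

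The largest losses at that concentration were assigned to expressed genes, with the exception of *4930487H11Rik*, which had members at -2.29 and -1.62 and was listed at 0. *1110038B12Rik* had the member with the largest loss, from 9.45 in WT to 5.84 in *UTX TCD* cells, and was counted at 2649, 2658 and 2543 in WT and 2544, 2538 and 2711 in *UTX TCD* libraries, which overlapped. *Ptma*, the gene of prothymosin α, had 4 members, all losses and the largest at -3.04, with a log2 fold change of -0.21 that missed the size for a call (adjusted p = 0.00857 from limma). *Gatd3a* had 4 losses down to -2.77 and a log2 fold change of -0.34 (adjusted p = 0.0057), also short of a call. *Wasf2*, an actin regulator gene, and *Spg7*, a mitochondrial protease gene, had members at -2.75 and -2.49, and neither was called. In the RefSeq annotation the *Wasf2* member at -2.75 lies between *Gm26615* and *n-TGgcc1*, and the *Gatd3a* member at -2.77 inside *Gm47922*. The gene body nearest to the *1110038B12Rik* member is that of *Hspa1b*. *Zfp36l2*, which encodes a protein that destabilizes messenger RNA, fell from 91607 ± 17033 to 59968 ± 7501 (SD, n = 3; log2 fold change -0.60, adjusted p = 0.00748 from limma) with a member at -2.15. That call was lost without *UTX TCD* replicate 3, at a log2 fold change of -0.49. Of the 4 members of *Zfp36l2*, 1 gained, by 0.32 at 24660 bp downstream, the nearest to the TSS. The member at -2.15 lies inside the body of *Gm19696* in the RefSeq annotation, with other genes on both sides. *Trnp1* stood apart, at 499, 822 and 462 in WT and 2.25, 10.4 and 5.90 in *UTX TCD* libraries, with its member at -2.45, and passed the filter only through WT.

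Some loci held many members. *Pisd-ps3*, a pseudogene on an unplaced contig, had the most, with 13, all losses from -0.50 to -1.13, and was listed at 0 in all RNA-seq libraries. *Btg1*, an antiproliferative gene of quiescent lymphocytes, had 12 members, of which 10 gained, and a log2 fold change of 0.13 (adjusted p = 0.0731 from limma). *Runx3*, which directs the CD8 lineage, had 9. Its 7 upstream members all lost, from -0.41 to -1.78, and its 2 downstream members gained, at 0.44 and 0.28. In the RefSeq annotation the 7 upstream members lie between *Gm42327* and *Gm16225*. *Runx3* was counted at 38796, 38715 and 36802 in WT and 42534, 41420 and 40390 in *UTX TCD* libraries, so it was higher in all 3, by a log2 fold change of 0.12 under the size for a call (SE 0.04, adjusted p = 0.0462 from limma). *Thy1* also had 9 members, 8 of them upstream between -31258 and -2151 bp, and all lost, from -0.35 to -1.89. It was counted at 169977, 135061 and 163387 in WT and 34422, 33235 and 21887 in *UTX TCD* libraries, with no overlap (log2 fold change -2.41, SE 0.16, adjusted p = 8.58e-06 from limma). *Irf2bpl* and *Sik1* had 8 members each, with 7 losses each, and neither gene was called. *Gm12108* and *Gm4668* also had 8, with gains and losses side by side, and the largest gain of all members, 4.78, lay near *Gm12108*, where concentration was 1.37 in WT and 6.15 in *UTX TCD* cells.

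Among 14 transcription factor genes of progenitor T cells, 11 had members, 16 gains and 11 losses in all. Of those 11 genes, 3 were called, all higher, and their median log2 fold change was 0.33. The same over all tested genes, here and for the lists that follow, is 10.5% higher, 7.05% lower and a median of 0.00. All lists were set with earlier results of these data known, so a share beside these values is a description and no test. *Bach2*, a repressor that holds back effector programs, had 1 gain (0.59) 17363 bp upstream and rose from 26029 ± 916 to 39206 ± 1980 (SD, n = 3; log2 fold change 0.59, adjusted p = 3.03e-05 from limma). In the RefSeq annotation this member lies inside *Bach2*. *Eomes*, a T-box factor gene, had 2 gains and a log2 fold change of 0.62 (adjusted p = 0.00388 from limma), which was 0.46 without *UTX TCD* replicate 3 and then short of a call. *Ikzf2*, which encodes Helios, rose (log2 fold change 0.78, adjusted p = 0.00662 from limma) although both of its members lost, by -0.33 and -2.80. *Tcf7*, the gene of TCF1, had 2 gains and 1 loss and was not called. *Lef1* had 2 gains and 2 losses at a log2 fold change of 0.38 (adjusted p = 0.00517 from limma). *Satb1* had 2 gains, of 2.21 and 0.47, and its libraries overlapped. *Klf2* and *Klf3*, which keep T cells quiescent, had 3 gains and 5 losses between them and log2 fold changes of -0.46 and -0.43, under the size for a call. *Foxp1* had 2 gains and a log2 fold change of 0.33, and its member at -1583 bp lies inside *Foxp1* in the RefSeq annotation.

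Of 27 effector and exhaustion factor genes, 19 had members, 22 gains and 13 losses, and among the 18 tested of these 4 rose and 1 fell, at a median log2 fold change of 0.18. *Tbx21*, the gene of T-bet, had 1 gain (1.39) and was counted at 646, 877 and 589 in WT and 1404, 1420 and 1872 in *UTX TCD* libraries, all above WT (log2 fold change 1.16, SE 0.16, adjusted p = 0.00057 from limma). *Nr4a2* had gains of 1.52 and 1.43 and rose from 340 ± 126 to 1030 ± 260 (SD, n = 3; log2 fold change 1.63, adjusted p = 0.000935 from limma). *Tox2*, a relative of *Tox*, had 1 gain (0.78) and a log2 fold change of 1.66 (adjusted p = 9.72e-05 from limma). *Irf4*, an antigen-induced factor gene, had 2 gains and a log2 fold change of 0.62 (adjusted p = 0.0212 from limma), a call lost without WT replicate 1 (adjusted p = 0.074), WT replicate 3 (0.0662) or *UTX TCD* replicate 3 (0.0731), and with DESeq2 (0.0658). *Fosl2*, of the AP-1 family, was the gene that fell, with a loss of -0.82 at 3276 bp upstream and a log2 fold change of -2.45 (adjusted p = 1.87e-06 from limma).

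Homing receptor and integrin genes divided. Of 26, 17 had members, 19 gains and 21 losses, and of the 15 tested of these 2 rose and 5 fell, beside 10.5% and 7.05% of all tested genes, at a median log2 fold change of -0.15. *Itgae*, which encodes the CD103 chain that binds E-cadherin, had 2 losses (-0.62 and -1.63) and was counted at 61194, 65163 and 64576 in WT and 14860, 15948 and 14710 in *UTX TCD* libraries, far below WT (log2 fold change -2.07, SE 0.05, adjusted p = 1.88e-08 from limma). *Itga4*, the α4 chain of VLA-4, had 3 losses down to -1.52 and a log2 fold change of -1.05, and *Itgam*, the CD11b chain, had 3 losses down to -1.56 and one of -2.57. *Ccr4* had 3 losses, of -0.35, -1.20 and -2.51, and was counted at 682, 682 and 731 in WT and 171, 162 and 98.0 in *UTX TCD* libraries (log2 fold change -2.31, adjusted p = 3.82e-05 from limma). The member with -0.35 lies inside *Ccr4* in the RefSeq annotation. *Cxcr5*, the follicle homing receptor gene, had 3 gains and 1 loss and rose from 2581 ± 254 to 7122 ± 1275 (SD, n = 3; log2 fold change 1.45, adjusted p = 2.63e-05 from limma). *Ccr2* had 1 gain (0.49) and a log2 fold change of 1.52 (adjusted p = 0.0204 from limma), whose call was lost without WT replicate 1 (adjusted p = 0.0537) or WT replicate 2 (0.0532), and whose log2 fold change was 0.97 without *UTX TCD* replicate 3. *Cxcr4* went the other way from its chromatin. Its 5 members all gained, from 0.40 to 0.74, and it was counted at 85023, 58900 and 79282 in WT and 49428, 45881 and 34749 in *UTX TCD* libraries, all below WT (log2 fold change -0.78, SE 0.15, adjusted p = 0.0037 from limma). *S1pr1*, the receptor gene for egress from lymph nodes, had losses of -0.61 and -1.17 and a log2 fold change of -0.41, short of a call.

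Cytokine receptors and their feedback inhibitors had members at 15 of 25 genes, 11 gains and 16 losses, and 5 of these genes rose and 2 fell, at a median log2 fold change of 0.11. Over all 25 genes of the list, 5 rose and 5 fell. *Ifngr1*, a chain of the interferon-γ receptor, had 3 losses from -0.38 to -1.23 and fell from 19767 ± 1629 to 10078 ± 924 (SD, n = 3; log2 fold change -0.97, adjusted p = 2.14e-05 from limma). *Il12rb1* had 2 losses and a log2 fold change of -1.27 (adjusted p = 2.7e-05). *Cish*, an inhibitor of cytokine signalling, had 2 gains (0.48 and 0.60) and rose from 775 ± 45.8 to 2430 ± 272 (SD, n = 3; log2 fold change 1.64, adjusted p = 3.92e-06 from limma). *Il4ra* had 1 gain (0.38) and a log2 fold change of 0.66. *Il2rb* had a gain of 1.59 and a loss of -1.32 and a log2 fold change of 0.63. Its member at -7873 bp lies inside *Il2rb* in the RefSeq annotation. *Socs1* and *Socs3* rose, by log2 fold changes of 0.66 and 0.76, while the single member of *Socs1* lost (-1.27) and those of *Socs3* were 1 gain and 2 losses.

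Genes of cytotoxic molecules and secreted cytokines had members at 11 of 22, 11 gains and 12 losses, and among the 9 tested 2 rose and 2 fell, at a median log2 fold change of -0.19. All 7 members of *Ifng* lost, from -0.55 to -1.17, 2 of them upstream and 5 downstream. Its RNA was low and overlapped between the genotypes, at 10.9, 20.7 and 32.8 in WT and 6.75, 10.4 and 31.7 in *UTX TCD* libraries (adjusted p = 0.513 from limma). *Xcl1*, a chemokine gene, fell by 1.95 on the log2 scale with 1 gain and 1 loss. *Gzmc*, with 1 loss, was counted at 18.5 ± 4.54 in WT and 3.81 ± 2.69 in *UTX TCD* cells (SD, n = 3) and was among the genes that passed the filter only through WT, and its reads can be shared with other granzyme genes. Its member lies inside *Gzmc* in the RefSeq annotation. *Ccl3*, with 1 gain of 0.47, was low, at 3.51 ± 2.19 in WT and 18.6 ± 2.09 in *UTX TCD* cells (SD, n = 3), and passed the filter only through *UTX TCD* cells. *Lta*, the gene of lymphotoxin α, had 1 gain and 1 loss and a log2 fold change of 0.52, and that call was lost without WT replicate 2 (0.47) or *UTX TCD* replicate 1 (0.43).

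Inhibitory and costimulatory receptor genes had members at 12 of 23, 12 gains and 3 losses, and of the 11 tested 1 rose and 3 fell, at a median log2 fold change of -0.10. *Klrc1*, which encodes the inhibitory receptor NKG2A, had 1 gain (0.48) and rose from 43.3 ± 12.4 to 329 ± 82.4 (SD, n = 3; log2 fold change 2.91, adjusted p = 3.84e-05 from limma). This member lies inside *Klrc1* in the RefSeq annotation. *Tnfrsf18*, the gene of GITR, had 1 loss (-0.96) and a log2 fold change of -0.96 (adjusted p = 1.28e-05 from limma). Its member lies between *Gm16008* and *Ttll10* in the RefSeq annotation. *Havcr2*, the gene of TIM-3, had 1 gain (0.75) and low counts of 18.0 ± 3.62 in WT and 3.05 ± 0.731 in *UTX TCD* cells (SD, n = 3), and passed the filter only through WT. *Pdcd1*, the gene of PD-1, had 1 gain (0.62) and a log2 fold change of -0.69 (adjusted p = 0.0351 from limma), and that call was lost in 5 of the 6 fits that left out a library, with an adjusted p of up to 0.118, and also with each library scaled to 1 common total (0.0595) and with edgeR (0.0533).

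A list of genes of the T cell receptor complex and its signalling, with other genes of T cell state, had 11 gains and 26 losses at 13 of 25 genes. The list holds *Thy1*, *Cd9* and *Dapl1*, which the paper already names as less expressed, so its shares describe it and test nothing. Of those 13 genes 6 were called, all lower, beside 17.6% called and 7.05% lower among all tested genes, at a median log2 fold change of -0.37, and 9 of the 26 losses belonged to *Thy1*. The 6 were *Thy1*, *Dapl1*, *Cd9*, *Ahnak*, *Dusp2* and *Ubash3b*, none of them a subunit of the receptor, while the coreceptor genes *Cd8a* and *Cd8b1*, the kinase gene *Zap70* and the surface protein genes *Cd6* and *Ptprc* were not called. *Dapl1* had 4 losses and 2 gains and was counted at 19223, 16163 and 16644 in WT and 1694, 1468 and 1272 in *UTX TCD* libraries (log2 fold change -3.56, SE 0.10, adjusted p = 6.62e-08 from limma). *Cd9*, a tetraspanin gene, had 1 loss (-0.47) and a log2 fold change of -3.53, and *Ahnak*, the gene of a large scaffold protein, had 1 loss (-1.40) and one of -2.60. *Dusp2*, a phosphatase gene, had a gain of 0.71 and a loss of -1.56 and a log2 fold change of -0.96. *Ubash3b* had 1 gain and 1 loss and a log2 fold change of -1.18. Among 15 survival and apoptosis regulators 4 had members, 1 gain and 7 losses. *Bmf*, a proapoptotic gene, had losses of -1.29 and -2.75 and fell from 1270 ± 87.0 to 151 ± 55.1 (SD, n = 3; log2 fold change -3.14, adjusted p = 2.6e-05 from limma). *Mcl1*, a survival gene, had 3 losses from -0.64 to -1.04 and overlapping libraries (log2 fold change -0.09, adjusted p = 0.194 from limma). *Bcl2l11*, the gene of BIM, had a loss of -1.68 and a log2 fold change of -0.41, short of a call except without WT replicate 1 (-0.52), and was -0.22 without WT replicate 2. Of 12 genes of UTX and its MLL3/4 complex, with the related demethylase *Kdm6b*, only *Kdm6b* had a member, a loss of -0.34.

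The largest rises in expression of genes with a gain assigned to them were seen at *Nrn1*, *Dll1*, *Gucy1a1*, *Ier5l*, *Gprc5a*, *Zfp608*, *Wnt3* and *Mx1*. Of these, *Ier5l* and *Gprc5a* passed the filter on low counts only through *UTX TCD* cells. In the RefSeq annotation the member of *Mx1* lies between *Bace2* and *Fam3b*, and those of *Wnt3*, *Gucy1a1* and *Zfp608* lie inside the bodies of *Wnt9b*, *Gm29921* and *Gm4221*. The upstream members of *Ier5l* also have other genes on both sides. *Nrn1*, which encodes neuritin, had gains of 1.07 and 1.72 upstream and was counted at 527, 751 and 532 in WT and 12126, 12271 and 10341 in *UTX TCD* libraries, with a wide gap between them (log2 fold change 4.28, SE 0.13, adjusted p = 8.91e-08 from limma). *Dll1*, a Notch ligand gene, had a gain of 1.90 at 4914 bp upstream and rose from 10.6 ± 4.03 to 143 ± 19.2 (SD, n = 3; adjusted p = 4.08e-05 from limma). *Gucy1a1*, a subunit of soluble guanylate cyclase, had gains of 0.88 and 1.16, and its WT libraries varied, at 139, 888 and 153, below *UTX TCD* libraries at 3079, 3439 and 3397. *Mx1*, an interferon-induced antiviral gene, had a gain of 0.94 downstream and was counted at 2231, 1886 and 2316 in WT and 20089, 21094 and 15949 in *UTX TCD* libraries (log2 fold change 3.15, adjusted p = 1.83e-07 from limma). *Zfp608* rose by a log2 fold change of 3.56 from 63.3 ± 18.2 to 743 ± 85.6 (SD, n = 3). *Ier5l* had 4 gains, with WT values of 1.98, 1.97 and 1.53 and *UTX TCD* values of 36.0, 31.2 and 33.9. *Gprc5a* had 1 gain, with WT values of 5.94, 0.987 and 1.53 and *UTX TCD* values of 54.0, 28.8 and 36.1. That the genotypes did not overlap at these 8 genes follows from how they were chosen.

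The largest falls of genes with a loss assigned to them, chosen in the same way, were those of *Klhl14*, *Trnp1*, *Lhfpl1*, *Itgad*, *Lypd6b*, *Gm6551*, *Pde9a* and *Ndnf*. Of these, *Klhl14*, *Trnp1*, *Lhfpl1*, *Itgad* and *Gm6551* passed the filter only through WT, so their counts are given with no fold change. The members of *Ndnf* lie inside the body of *Gm36144*, that of *Lhfpl1* inside *Lhfpl1* as RefSeq has it, and the downstream members of *Gm6551* between other genes. *Klhl14* had losses of -1.07 and -0.88 upstream and was counted at 267, 141 and 227 in WT and 2.25, 1.60 and 0 in *UTX TCD* libraries. *Lhfpl1* had a loss of -1.20, with WT values of 51.5, 46.4 and 68.6 and 0 in every *UTX TCD* library, where 3 reads would make a share of 4.88e-08, 1.71e-08 and 1.6e-08. *Itgad*, an integrin chain gene, had losses of -1.19 and -0.87, with WT values of 52.5, 44.4 and 71.7 and *UTX TCD* values of 2.25, 0 and 3.69. *Lypd6b* had a loss of -1.15 at 7022 bp upstream and was counted at 6213, 6233 and 6366 in WT and 288, 374 and 216 in *UTX TCD* libraries (log2 fold change -4.45, SE 0.17, adjusted p = 2.32e-07 from limma). *Pde9a*, a phosphodiesterase gene that degrades cyclic GMP, had 3 upstream losses from -0.79 to -1.40 and fell from 1387 ± 53.6 to 70.6 ± 8.51 (SD, n = 3; log2 fold change -4.28, adjusted p = 7.83e-08 from limma). *Gm6551* had 4 losses down to -2.80 and was counted at 180 ± 12.9 in WT and 8.95 ± 5.42 in *UTX TCD* cells (SD, n = 3). *Ndnf* had losses of -0.35 and -1.26 and fell by 3.80 on the log2 scale.

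The sorted cells were checked against their markers. *Cd8a* was counted at 272155 ± 2012 in WT and 298501 ± 23849 in *UTX TCD* cells (SD, n = 3), and *Cd8b1* at 141469 ± 6442 and 109592 ± 13063 (adjusted p = 0.00634 from limma, log2 fold change -0.37). The 2 members of *Cd8a* and 3 of *Cd8b1* were small and went both ways, from -0.42 to 0.36. *Slamf6* (Ly108) was counted at 28378 ± 5425 in WT and 34357 ± 2989 in *UTX TCD* cells (SD, n = 3), *Cd44* at 11830 ± 377 and 13342 ± 855, and *Entpd1* (CD39) at 17.3 ± 10.7 and 7.24 ± 4.82. *Cxcr6*, the negative marker of the labels, was counted at 12033 ± 2146 and 5658 ± 355 (log2 fold change -1.07, adjusted p = 0.000131 from limma) and had no member. Genes of other cell types were read as whole lists. The 10 B cell genes had 5 members, 4 of them gains, and among the 8 tested 2 rose and 2 fell. Their summed counts were 115843, 98156 and 107599 in WT and 97054, 91638 and 83402 in *UTX TCD* libraries, led by *Ighm*, while *Pax5* had means of 5.54 and 5.19. *Cd79b* and *Ighd* were the genes that fell, from 2299 ± 320 to 583 ± 98.8 and from 995 ± 134 to 636 ± 68.7 (SD, n = 3). *Ms4a1*, at 11.4 ± 7.36 and 41.0 ± 28.1, was 1 of those that rose, and its call was lost without WT replicate 1 or 3 or *UTX TCD* replicate 2 or 3. *Cd22* had 2 gains and rose from 86.8 ± 12.9 to 342 ± 139 (SD, n = 3; adjusted p = 0.000535 from limma). The 10 myeloid genes summed to 264, 262 and 256 in WT and 205, 208 and 314 in *UTX TCD* libraries, led over all libraries by *Mpeg1* and in WT by *Fcgr3*, with *S100a8* at 0, and among the 5 tested 1 rose and 3 fell. Those that fell were *Fcgr3*, from 78.1 ± 20.7 to 17.6 ± 8.22, *Csf1r*, from 24.2 ± 4.53 to 6.07 ± 1.85, and *Itgax*, from 43.0 ± 16.2 to 1.47 ± 2.55 (SD, n = 3), of which *Csf1r* and *Itgax* passed the filter only through WT. *Mpeg1* had a gain of 1.84 and rose from 40.1 ± 7.90 to 146 ± 56.4 (SD, n = 3; adjusted p = 0.00135 from limma). The 4 CD4 and Treg genes summed to 518, 413 and 490 in WT and 391, 382 and 369 in *UTX TCD* libraries, led by *Foxp3*, and 2 were called, both lower. The 5 NK genes summed to 13417, 15388 and 13200 in WT and 19167, 19165 and 26975 in *UTX TCD* libraries, nearly all of it *Eomes*, which CD8 T cells also express, and 2 rose, *Eomes* and *Klra4*, the latter from 12.2 ± 5.46 to 75.3 ± 30.1 (SD, n = 3). *Klra8* was listed at 0 in WT and had a mean of 6.30 in *UTX TCD* cells, *Klrb1c* had means of 33.6 and 15.0, and *Ncr1* had means of 2.31 and 0.983. Fewer cells of a type and less RNA per cell cannot be told apart in these bulk libraries, and the part of other cells in the results was not tested.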

How the data were processed

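RNA-seq and ATAC-seq of T_prog_ cells, with 3 libraries per genotype in each assay, were grouped by genotype from the labels. For RNA-seq the authors used HISAT2 2.2.1 on mm10, featureCounts and size factors of DESeq2, so the deposited signal is a normalized count per gene and library. Annotation and strand setting were not given in the sources used here, so values of overlapping or antisense genes and of close paralogs may mix. The ATAC-seq files come from Bowtie2, MACS2, DiffBind and HOMER as run by the authors, and the deposited values are log2 concentrations per genotype with a distance to the TSS. A read shift for the transposase was not given. The authors' own fold changes, errors, p-values and FDR, for peaks and genes, were not used.

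Members were read by annotation and distance and joined to RNA-seq by gene symbol. limma 3.58.1 in R 4.3.3 (lmFit, eBayes with trend, genotype only, pseudocount 1, mean of at least 10) was tested on simulated reads and adjusted by Benjamini-Hochberg over all 14459 genes. edgeR 4.0.16 and DESeq2 1.42.0 were run as alternatives on recovered reads. Dividing each library by its step gave whole numbers for 100% of values in all 6 libraries, within 0.1 of a read. The steps of WT replicates 1 and 2, at 0.991 and 0.987, are so close to 1 that their recovery is less certain. edgeR and DESeq2 called 2541 and 2422 genes, and limma 2538.

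The members, gene lists and motifs were chosen with earlier results of these data known. Named genes were the 8 members with the largest gain and the 8 with the largest loss at or above the median concentration, the 6 genes with the most members including ties, listed genes with a member, the 8 largest called rises and 8 largest falls with a member of the same direction and libraries that did not overlap, *Kdm6a* and the sort markers. Not every gene of the lists is named. Sequences came from GRCm38.p6 with Python 3 scripts. Alternatives covered pseudocount, filter, scaling, test, replicate block, libraries, fold limit, distance and gene assignment. Counting limits from 3 reads cover counting error only.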

Additional observations from a re-analysis of the deposited data

How the results depend on the processing

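The count of 558 called genes with a member lay between 504 and 589 when 1 library was dropped, and it stayed within 1.5 times under every alternative except the fold limit, which gave 1213 genes with none and 318 with a limit of 1. The balance of 301 higher to 257 lower turned to 557 and 656 without a fold limit, and was 339 and 221 with libraries scaled to 1 common total, which moved the median of all genes to 0.06. With the replicate number as a block 552 genes were called, 545 of them shared with the fit without it. Deviations of same-numbered libraries correlated at 0.31, -0.20 and 0.09, and not every library correlated best with its own number, and the libraries were not treated as pairs.

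The share of gains, 66.8%, was 65.5% among members with a difference over 0.5 in size, 60% over 1 and 71.2% with 1 peak per gene. The share of called genes with the same direction, 79.6%, was 82.7% within 20 kb, lay between 77.4% and 80.8% when 1 library was dropped, and was 80.3% with the block. The cause of these shifts was not tested. *1110038B12Rik*, which was not called, changed sign, to 0.052 with libraries scaled to 1 common total, and lay between -0.042 and 0.006 when 1 library was dropped, on the positive side without WT replicate 2, *UTX TCD* replicate 1 or *UTX TCD* replicate 2. Of 91 named genes whose fold change was computed under the alternatives, 8 lost a call under at least 1 and 1 gained one. Depth limits the genes with few reads, and ATAC-seq has no value per library here.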
